A study of Mus musculus with 6 samples.

Results

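The genes described here encode the intermediate filament scaffold that runs from the cell surface to the nucleus: the cytoplasmic filament proteins vimentin (Vim), nestin (Nes) and synemin (Synm), the nuclear lamins (Lmna, Lmnb1, Lmnb2), and the plakin cytolinkers plectin (Plec), periplakin (Ppl), envoplakin (Evpl) and dystonin (Dst). They were taken by gene symbol from the deposited table of normalized counts. All 10 symbols were found among its 24129 rows.

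RNA sequencing data of 6 samples were analysed, 3 of T1 cells and 3 of T2 cells, each labelled as a replicate of its population. Both populations came from a single lineage: mouse 4T1 mammary carcinoma cells carrying GFP (4T1GFP), grown as a tumor in BALB/c mice and recovered from the resected primary tumor. They emerged as GFP-positive cells that overgrew a culture of sorted cancer associated fibroblasts and were sorted again by GFP intensity. T1 cells (labelled 4T1A) were GFP low and adherent with an epithelial shape. T2 cells (labelled 4T1NA) were GFP high, round and loosely attached, and were passaged like a suspension culture without trypsin. Both were kept in DMEM/F-12 with serum and antibiotics. Parental 4T1GFP cells were sequenced as well and were not analysed here. The study's methods describe its experiments in general as run on biological replicates, and neither they nor the labels say how the replicates of the RNA samples were made. The p-values below measure the spread between these samples.

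Intermediate filaments are tough, non-polar ropes built from coiled-coil proteins. Vimentin is the typical filament protein of mesenchymal cells and is often gained by carcinoma cells that take on mesenchymal features, nestin and synemin join vimentin-type filaments and do not assemble well alone, and lamins line the inner nuclear membrane, where A-type lamins stiffen the nucleus. Plakins are long linker proteins that tie filaments to desmosomes, hemidesmosomes, actin, microtubules and the nuclear envelope. Loose attachment and a round shape are the labelled traits of T2 cells, and the comparison below asks which parts of this scaffold differed in RNA level between T1 and T2 cells.

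In T2 cells the RNA of Vim, Lmna and Plec, which encode vimentin, lamin A/C and plectin, was 4.46-fold, 4.24-fold and 2.58-fold higher than in T1 cells. The study reports that vimentin mRNA also differed between the populations by qRT-PCR, without giving the direction in its text. Its scores of epithelial or mesenchymal state, taken from its RNA sequencing data, placed T2 cells as more mesenchymal. For vimentin protein, the study's western blots showed no significant difference between the populations. Ppl was 1.41-fold higher in T2 cells. Nes and Lmnb1 were 2.15-fold and 1.55-fold higher in T1 cells. No difference passed the test for Synm, Lmnb2, Evpl and Dst.

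The promoters of Vim, Lmna and Nes are shown because these genes carried the largest difference in each direction and the largest difference among the lamins. RefSeq promoter sequences of GRCm38.p6, the assembly also called mm10, were matched by symbol for 6 of the 10 genes (Vim, Nes, Synm, Lmna, Lmnb2 and Dst). Lmna, Lmnb2 and Dst each had 2 promoters, numbered 1 and 2 here, and the Lmna window is from promoter 1. Each window below holds 30 bases upstream of the RefSeq start site, on the strand of the gene and written 5′ to 3′, with the motif in capitals. The Vim windows lie at chr2:13574267-13574296, chr2:13574102-13574131 and chr2:13574204-13574233 on the plus strand, inside the untranslated part of the first exon of a longer GENCODE transcript (Vim-201). The Nes window lies at chr3:87971013-87971042 on the plus strand and the Lmna window at chr3:88503387-88503416 on the minus strand. The Lmna window also lies inside the annotated span of its gene, which reaches to 88509956.
Vim TATA box: tcctaacagtgtTATAAAagcagcgccctt
Vim CCAAT box, distal: aggcctagcacttCCAATtagtaacaggac
Vim CCAAT box, proximal and on the reverse strand: tttccgggtccccATTGGctggctcgctcg
Nes, a pair of GC boxes on the reverse strand: ctagggaCCGCCCcttttCCGCCCggccgg
Lmna GC box on the reverse strand: ccatacctgcccCCGCCCctttgggtacag

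Among the matched promoters, TATAAA was found only in that of Vim, 32 bases upstream of its start (position -32). Over all 32851 RefSeq promoters, 12.4% held TATAAA in the 250 bases before the start on either strand. GGGCGG, the GC box, was found in the promoter of Nes and in promoter 1, not promoter 2, of Lmna, Lmnb2 and Dst. It was found in 32.7% of all promoters, a share that counts promoters and not genes. CCAAT was found in the promoters of Vim and Synm, in promoter 2, not promoter 1, of Lmna and Dst, and in 33.8% of all promoters. The E box CACCTG was found in promoter 2 of Lmnb2 and promoter 1 of Dst, and in 17.2% of all promoters. TGANTCA (an AP-1 site, 6.75% of all promoters) and TTTGAA (a cell cycle element, 16% of all promoters) were found in no promoter of these genes. These are matches of letters on both strands within this window and not measured binding sites.

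The libraries held between 18133227 and 20839686 reads on genes, and 1 read was worth 0.928 to 1.06 normalized counts. Replicates of a population differed by more than counting noise, with a chi-square per degree of freedom of 7.96 between T1 replicates 1 and 2, 23.3 and 25.0 between these and T1 replicate 3, and at least 10.7 among T2 replicates. T1 replicate 3 therefore stood further from the other T1 libraries than they did from each other. The test covered the 11514 genes whose mean over the 6 libraries reached 10 normalized counts, all 10 described here among them, and used limma on log2(normalized count + 1). A fold change is given as T1 minus T2 on this log2 scale, on which genes with few reads show too small a change. A gene was called at a Benjamini-Hochberg adjusted p-value under 0.01 over all genes tested. Over all genes tested the fold changes had a median of -0.0055.

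At that threshold 2 of the 10 genes, Nes and Lmnb1, were higher in T1 cells, where 25.1% of all genes tested were. Another 4, Vim, Lmna, Plec and Ppl, were lower in T1 cells, where 24.4% of all genes tested were. With the further filter of a log2 fold change beyond 2, 0 of the 10 were higher in T1 cells (4.17% of all genes tested) and 2, Vim and Lmna, were lower (4.2% of all genes tested). The T1 and T2 values of 9 of the 10 genes did not overlap, with T1 above in 4 and below in 5, and 68.1% of all genes tested were separated in the same way. The 10 genes had a median log2 fold change of -0.25, and Dst was the gene whose libraries overlapped. As the populations differed in about as large a share of all genes, the number of these genes called is close to the background, and the descriptions below rest on the size and direction of each gene. In cultures sequenced in bulk, fewer cells with a transcript and less of it per cell cannot be told apart.

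**Figure D1:**
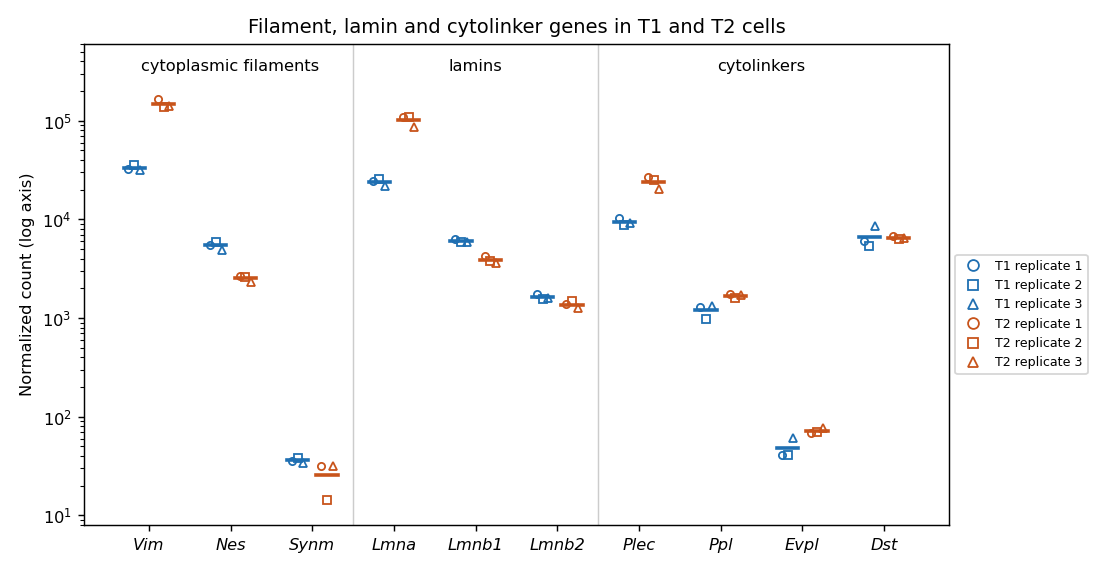
Normalized count (log axis) of each of the 10 genes in the 6 libraries, with T1 in blue and T2 in orange, a marker shape for each replicate and a bar at the mean of each population. T2 values of Vim, Lmna and Plec lie above every T1 value, T1 values of Nes and Lmnb1 lie above every T2 value, and those of Dst overlap.

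Vim, the vimentin gene (ENSMUSG00000026728.9), is annotated on the plus strand of chromosome 2, from 13573927 to 13582826 in mm10, the build of all positions below. Its normalized counts were 32268, 35999 and 31659 in T1 replicates 1 to 3 and 166904, 137990 and 140278 in T2 replicates 1 to 3. Every T2 library exceeded every T1 library by far more than the replicates differed among themselves. The means were 33308 ± 2350 and 148391 ± 16074 (SD, n = 3 each), and the log2 fold change was -2.15 (standard error 0.0976, 95% interval -2.37 to -1.94) at an adjusted p of 5.3e-08 (limma with Benjamini-Hochberg adjustment). Only 7.53% of all genes tested had a larger absolute fold change. Vim was already abundant in T1 cells, where it ranked between 27 and 31 among all genes by normalized count. In each T2 library it ranked 1. It took between 0.164% and 0.186% of all normalized counts in T1 libraries, and 0.720% to 0.870% in T2 libraries.

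Nes encodes nestin, a very large filament protein of progenitor cells that copolymerizes with vimentin. It lies on chromosome 3 from 87971078 to 87980451 on the plus strand. The T1 libraries had 5513, 5942 and 4907 normalized counts of it, and the T2 libraries had 2662, 2624 and 2318. All T1 values lay above all T2 values, which is the opposite direction to Vim. With means of 5454 ± 520 and 2535 ± 189 (SD, n = 3 each), the log2 fold change was 1.10 (standard error 0.0914, 95% interval 0.90 to 1.31) and the adjusted p 3.27e-06 in limma.

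Synm, which encodes synemin, a filament protein that bridges vimentin or desmin filaments to adhesion sites, lies on chromosome 7 from 67730160 to 67759742 on the minus strand. It was barely detected, with 14 to 41 reads per library. Its normalized counts were 36.0, 38.1 and 34.2 in T1 cells and 31.3, 14.3 and 31.5 in T2 cells. T2 replicate 2 stood alone at the bottom, and the other T2 values came close to the lowest T1 value without overlapping it. The log2 fold change of 0.55 had a 95% interval of -0.18 to 1.28 and did not pass the test (adjusted p = 0.168, limma), and it was 0.19 without T2 replicate 2. Exons of Synm share 426 bases with Gm45102 and 84 bases with Ttc23, both on the opposite strand, and since the library kit does not keep strand, reads there cannot be told apart.

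The remaining filament genes of this class were close to silent in both populations. Of 9 genes for desmin, glial fibrillary acidic protein, peripherin, the neurofilaments, internexin and the lens filament proteins, 2 (Nefm and Nefh) had no read in any library and none reached the mean of 10 normalized counts needed for the test. Their summed level ran from 5.58 to 7.41 normalized counts in T1 libraries and from 16.4 to 24.1 in T2 libraries. Most of the sum in T2 libraries came from the lens filament gene Bfsp1, singled out after its values were seen, which reached up to 16.7 normalized counts there. Vim and Nes were thus the genes of this class with an appreciable level.

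Lmna, which encodes lamins A and C by alternative splicing, lies on chromosome 3 from 88480147 to 88509956 on the minus strand. Both lamins are counted in 1 row, so their balance could not be read. T1 libraries had 24249, 25904 and 21902 normalized counts, and T2 libraries had 110127, 108992 and 86393. T2 replicate 3 was the lowest of its population and still lay well above every T1 library. The means were 24019 ± 2011 and 101837 ± 13387 (SD, n = 3 each). The log2 fold change was -2.08 (standard error 0.109, 95% interval -2.32 to -1.84), with an adjusted p of 1.36e-07 in limma. Lmna ranked 47 to 59 by normalized count in T1 libraries and 4 or 5 in T2 libraries, and it was just past the log2 fold change of 2 used as the further filter.

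The B-type lamins, which stay anchored to the nuclear membrane by a lipid tail, did not share this direction. Lmnb1 lies on chromosome 18 from 56707813 to 56753424 on the plus strand. Its normalized counts were 6366, 5933 and 5843 in T1 cells and 4259, 3801 and 3623 in T2 cells, so that every T1 library was higher. The log2 fold change was 0.64 (standard error 0.0809, 95% interval 0.46 to 0.82), with an adjusted p of 6.69e-05 in limma. Lmnb2 lies on chromosome 10 from 80901203 to 80918245 on the minus strand, and had 1768, 1548 and 1585 normalized counts in T1 cells and 1375, 1481 and 1253 in T2 cells. The highest T2 value of Lmnb2 lay just under the lowest T1 value, and its log2 fold change of 0.26 (95% interval 0.05 to 0.46) did not reach the threshold (adjusted p = 0.0346 in limma).

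**Figure D2:**
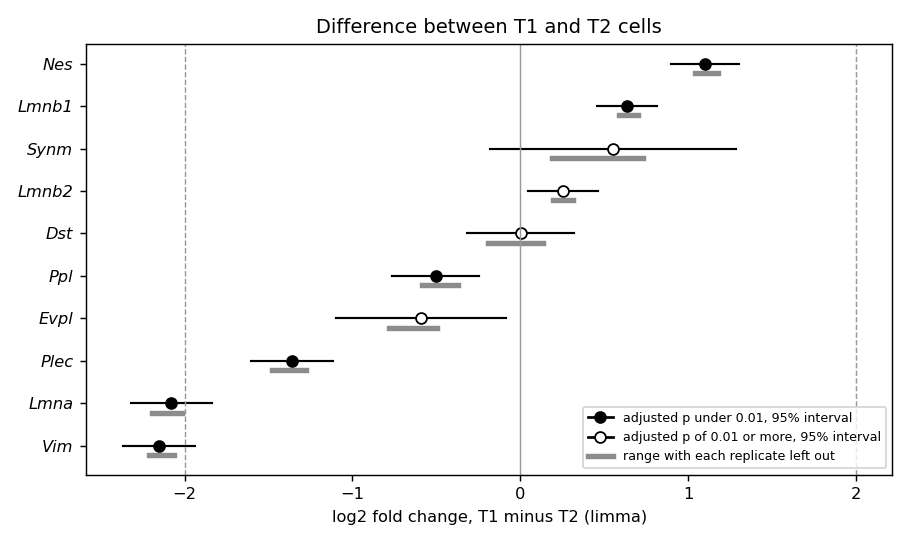
Log2 fold change (T1 minus T2, limma) of the 10 genes with its 95% interval, filled where the adjusted p was under 0.01, with a grey bar for the range over fits that each left out 1 replicate and dashed lines at -2 and 2. Vim and Lmna lie near -2.15 and -2.08, Plec at -1.36, and Nes at 1.10, while the interval of Dst spans 0.

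Plec encodes plectin, the most widely expressed plakin, which links vimentin and keratin filaments to actin, to hemidesmosomes and to the nuclear envelope. It lies on chromosome 15 from 76170974 to 76232574 on the minus strand. Its normalized counts were 10283, 8687 and 9231 in T1 cells and 26940, 25343 and 20340 in T2 cells. As with Lmna, T2 replicate 3 was the lowest T2 library and the populations did not overlap. The means were 9400 ± 811 and 24208 ± 3444 (SD, n = 3 each), and the log2 fold change was -1.36 (standard error 0.110, 95% interval -1.60 to -1.11, adjusted p = 2.73e-06 in limma). The annotation gives 22 transcripts for Plec, whose alternative first exons direct plectin to different partners, and the counts per gene do not separate them. Plec shares 205 exonic bases with Parp10 on the same strand, a gene of at most 331 normalized counts in any library.

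Ppl encodes periplakin, which links keratin and vimentin filaments to the cell membrane and is a precursor of the cornified envelope, and lies on chromosome 16 from 5086291 to 5132421 on the minus strand. T1 libraries had 1282, 990 and 1332 normalized counts and T2 libraries 1773, 1587 and 1714. The gap between the populations was smaller than the spread of the T1 libraries, of which replicate 2 was lowest. The log2 fold change was -0.50 (standard error 0.116, 95% interval -0.76 to -0.25, adjusted p = 0.00341 in limma). This call was lost without T1 replicate 2, where the log2 fold change was -0.37 (adjusted p = 0.0102), without T2 replicate 1 (-0.47, adjusted p = 0.0192), without T2 replicate 3 (-0.49, adjusted p = 0.0159), and without the variance trend of limma (adjusted p = 0.0165).

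Evpl, on chromosome 11 from 116220559 to 116238077 on the minus strand, encodes envoplakin, the partner with which periplakin forms dimers in stratified epithelia. It had few reads, 39 to 82 per library. The T1 libraries had 41.3, 40.9 and 61.5 normalized counts and the T2 libraries 68.5, 69.6 and 76.1. T1 replicate 3 came near the T2 values. The log2 fold change was -0.59 (95% interval -1.10 to -0.09) and did not reach the threshold (adjusted p = 0.0425 in limma), whereas without T1 replicate 3 it was -0.78 with an adjusted p of 0.00953.

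Dst, on chromosome 1 from 33908225 to 34308661 on the plus strand, encodes dystonin, whose epithelial isoform (BPAG1e) holds keratins at hemidesmosomes and whose other isoforms bind actin and microtubules. Its normalized counts were 5986, 5383 and 8528 in T1 cells and 6785, 6283 and 6416 in T2 cells. The T2 libraries lay inside the range of the T1 libraries, with T1 replicate 3 above all others. The means were 6632 ± 1669 and 6495 ± 260 (SD, n = 3 each), and the log2 fold change of 0.00 had a 95% interval of -0.31 to 0.32 (adjusted p = 0.990, limma). Without T1 replicate 3 it was -0.19 (adjusted p = 0.0482), which is also short of the threshold. The 20 annotated transcripts of Dst are counted together, and its exons share 1037 bases with Gm26788 and 456 bases with A930005N03Rik on the opposite strand.

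**Figure D3:**
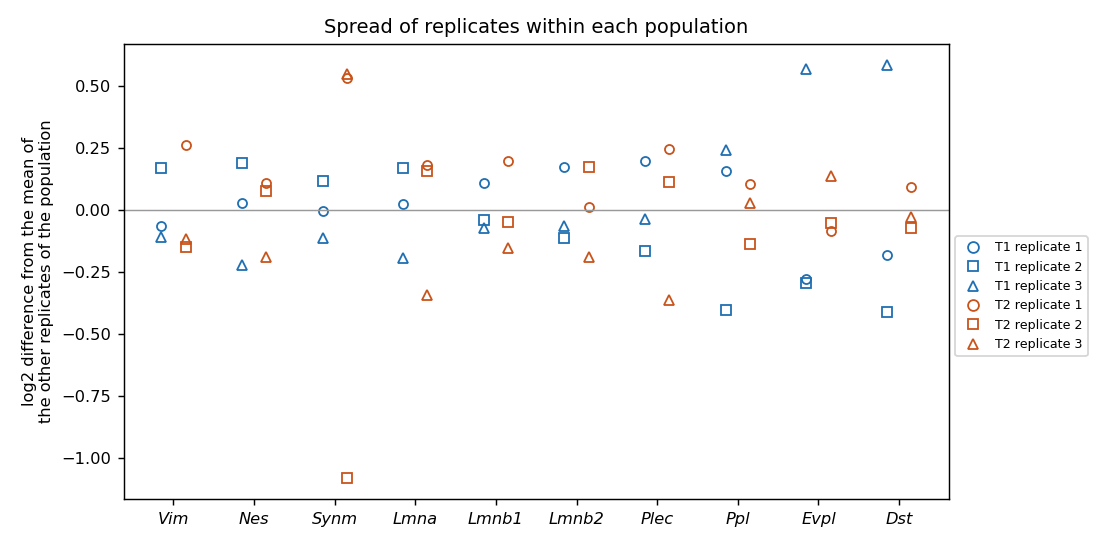
Log2 difference of each library from the mean of the other replicates of its population, for each of the 10 genes, with T1 in blue and T2 in orange. T1 replicate 3 is 0.59 above its partners for Dst and 0.57 for Evpl, and T2 replicate 2 is 1.08 below its partners for Synm.

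The genes did not share 1 ordering of the replicates. T1 replicate 2 was the lowest T1 library for 5 genes, namely all 4 cytolinkers and Lmnb2, and the highest for 4, namely Vim, Nes, Synm and Lmna. T1 replicate 3 was the highest T1 library for Ppl, Evpl and Dst. On the log2 scale it stood 0.59 above the mean of the other T1 libraries for Dst and 0.57 above it for Evpl. For comparison with Dst, the median of this deviation was 0.0575 over the 1005 genes with at least 10 kb of merged exons and a mean of at least 100 normalized counts. Evpl lies outside both limits, and the median does not give the spread of single genes. T2 replicate 3 was the lowest T2 library for 5 genes, Nes, the lamins and Plec. It lay 0.36 below the other T2 libraries for Plec and 0.34 below them for Lmna on the log2 scale.

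Levels of different genes were compared per kilobase of merged exons. On this scale Vim was highest in both populations, at 7023 ± 496 normalized counts per kilobase for T1 and 31286 ± 3389 for T2 (SD, n = 3 each). Lmna followed with 4114 ± 344 and 17444 ± 2293 per kilobase. In T1 cells the next were Lmnb1 (2042 ± 94.2), Nes (850 ± 81.0) and Plec (519 ± 44.8 per kilobase), and their values did not overlap. In T2 cells Plec moved up to 1337 ± 190 per kilobase, which overlapped the 1315 ± 111 of Lmnb1, ahead of Nes at 395 ± 29.4. Lmnb2 came next in both populations, with 381 ± 27.5 and 319 ± 26.6 per kilobase.

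Ppl (174 ± 26.9 and 245 ± 13.8 per kilobase) and Dst (161 ± 40.6 and 158 ± 6.31) ranked lower, and in T1 cells their values overlapped. On the length of the longest coding transcript Dst came ahead of Ppl in T1 cells, with 285 against 193. In T2 cells the values on that length were close, at 279 ± 11.2 for Dst and 272 ± 15.3 for Ppl (SD, n = 3 each). Evpl, at 7.5 ± 1.84 and 11.2 ± 0.639 normalized counts per kilobase, and Synm, at 4.55 ± 0.251 and 3.24 ± 1.25, were the lowest in both populations. On the longest coding transcript Vim stood at 15189 in T1 cells and 67666 in T2 cells, since this transcript has 2193 bases and the merged exons have 4743.

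With Lmna and Lmnb1 differing in opposite directions, the makeup of the lamin transcripts differed between the populations. The ratio of Lmna to Lmnb1 per kilobase was 1.93, 2.22 and 1.90 in the T1 libraries and 13.1, 14.6 and 12.1 in the T2 libraries. The means of this ratio were 2.02 ± 0.173 and 13.3 ± 1.23 (SD, n = 3 each), and on the longest coding transcripts they were 3.58 and 23.5. The share of Lmna in the summed lamin level averaged 62.9% ± 2.04 over the T1 libraries and 91.4% ± 0.638 over the T2 libraries (SD, n = 3 each). Lmnb1 held a share of 31.3% in T1 cells against 6.93% in T2 cells, and that of Lmnb2 was 5.84% and 1.68%. Within the B-type lamins the balance moved less, with a ratio of Lmnb2 to Lmnb1 of 0.187 ± 0.00591 for T1 and 0.244 ± 0.0235 for T2 (SD, n = 3 each).

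**Figure D4:**
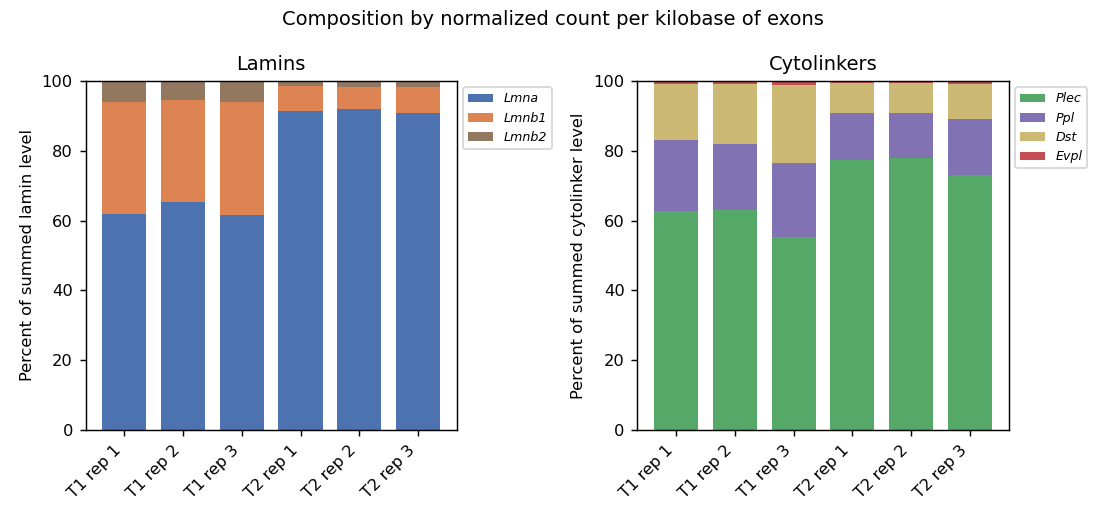
Share (percent) of each lamin gene in the summed lamin level and of each cytolinker gene in the summed cytolinker level, per kilobase of merged exons, with 1 stacked bar for each library. Lmna makes up 62.9% on average in T1 libraries and 91.4% in T2 libraries, and Plec 60.4% and 76.2% of the cytolinkers.

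Among the cytoplasmic filaments the ratio of Vim to Nes per kilobase was 8.28 ± 0.411 for T1 and 79.3 ± 7.20 for T2 (SD, n = 3 each). Vim made up 89.2% of the summed level of Vim, Nes and Synm in T1 cells and 98.7% in T2 cells. Among the 4 cytolinkers the share of Plec was 60.4% ± 4.32 for T1 against 76.2% ± 2.79 for T2 (SD, n = 3 each). Dst held 18.6% in T1 cells against 9.08% in T2 cells, and the share of Ppl was 20.2% and 14.1%. In contrast, the ratio of Vim to Lmna differed by less than the spread between replicates, at 1.71 ± 0.0707 and 1.81 ± 0.226 (SD, n = 3 each). Vim and Lmna thus differed between the populations by similar folds, and Plec by less, with a ratio of Vim to Plec of 13.6 ± 1.98 in T1 cells and 23.6 ± 2.77 in T2 cells. No test was run on these ratios.

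The other plakins went the opposite way to Plec. All 3 of them were higher in T1 cells, where 25.1% of all genes tested were. Dsp, which encodes desmoplakin, the plakin that anchors keratins to desmosomes, had 4336, 3852 and 4648 normalized counts in T1 cells and 3.92, 1.02 and 2.78 in T2 cells, with a log2 fold change of 10.31 (adjusted p = 2.37e-09, limma). Macf1, the closest relative of Dst and a linker of actin and microtubules, had means of 5051 and 3476 normalized counts, a log2 fold change of 0.53 (adjusted p = 0.000866, limma). Eppk1, encoding the epithelial plakin epiplakin, had means of 277 and 79.1 (log2 fold change 1.78, adjusted p = 0.000335, limma). The plakin family thus split in 3: Dsp, Macf1 and Eppk1 were higher in T1 cells, Plec and Ppl were higher in T2 cells, and Dst and Evpl passed the test in neither direction.

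Of 16 genes for partners of the lamina in the nuclear envelope, T1 cells were higher in 2 and lower in 6, while 8 passed the test in neither direction. Over all genes tested, 25.1% were higher and 24.4% lower in T1 cells. The median log2 fold change of the 16 genes was -0.08. Syne3 encodes nesprin-3, which binds plectin at the outer nuclear membrane and so joins it to vimentin filaments. It had 1125, 1189 and 1337 normalized counts in T1 cells and 4766, 4677 and 4612 in T2 cells. The difference, a log2 fold change of -1.95 (adjusted p = 3.45e-08, limma), was close in size to those of Vim and Lmna. Sun1, an inner membrane protein that connects nesprins to the lamina, had means of 2385 and 4148 normalized counts (log2 fold change -0.80, adjusted p = 3.26e-06 in limma). Banf1, a small chromatin-bridging protein of the lamina, was higher in T1 cells (log2 fold change 0.59, adjusted p = 0.000176 in limma). Lbr, the lamin B receptor, had 3901 ± 388 and 3797 ± 97.8 normalized counts (SD, n = 3 each), with overlapping values. Tmpo, which encodes the lamina-associated LAP2 proteins, had a log2 fold change of 0.23 and missed the threshold (adjusted p = 0.0104, limma). Without T2 replicate 1, 3 genes in place of 6 were lower in T1 cells.

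The 5 enzymes that finish lamins by adding and trimming their lipid tail did not share the direction of Lmna. Fnta and Fntb, the subunits of farnesyltransferase, Icmt, the methyltransferase, and Zmpste24, the protease that cuts prelamin A, were all higher in T1 cells. Their log2 fold changes were 0.46, 0.53, 0.45 and 0.58, with adjusted p-values of 0.000745, 0.00223, 0.000585 and 0.000305 in limma. Rce1, another protease of this route, had a log2 fold change of 0.35 and missed the threshold (adjusted p = 0.0143, limma). The median of the list was 0.46, and 25.1% of all genes tested were higher in T1 cells.

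**Figure D5:**
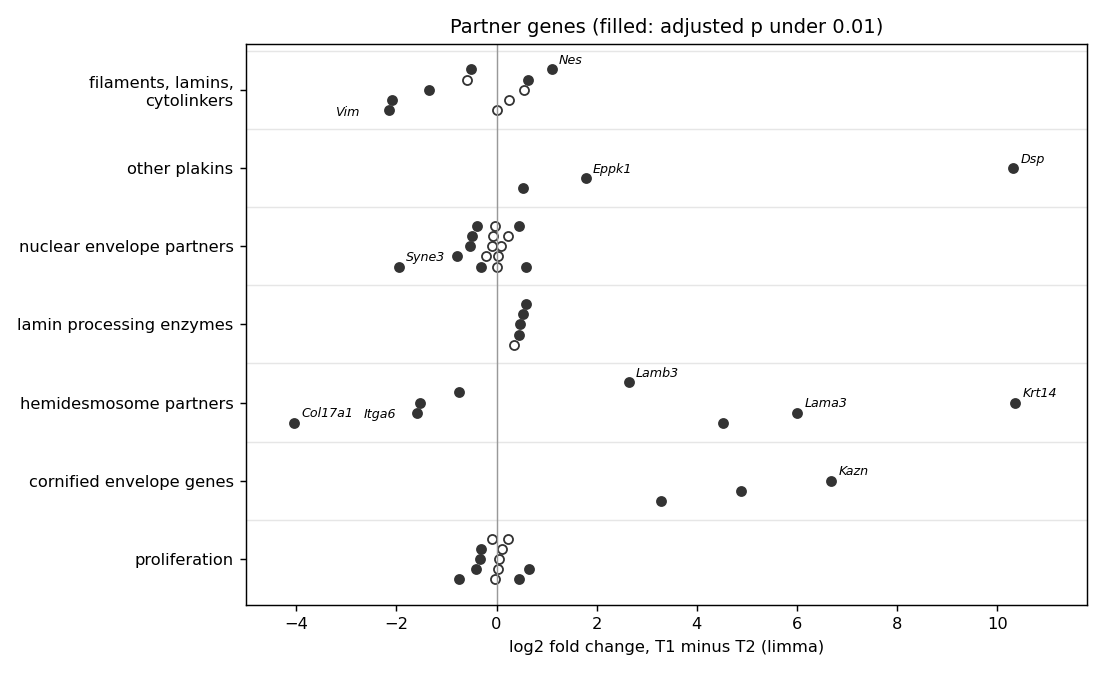
Log2 fold change (T1 minus T2, limma) of each tested gene in the lists of partner genes, filled where the adjusted p was under 0.01, with the 10 genes described here in the top row and points spread vertically for legibility. Dsp and Krt14 lie beyond 10 on the T1 side and Syne3 lies at -1.95. The fitted values of Kazn and Tgm1, which had no read in T2 cells, depend on the pseudocount, as do those of Dsp and Krt14, which had few.

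Hemidesmosomes are the junctions where plectin and the epithelial form of dystonin tie keratins to integrins. Of 9 genes for their partners, Krt5 had no read in any library. The 8 tested split evenly, 4 higher in T1 and 4 higher in T2 cells, around a median of 0.95. The shares of all genes tested were 25.1% and 24.4%. Krt14, a basal keratin, and Lama3, a laminin chain of the underlying matrix, had log2 fold changes of 10.36 and 6.01 (adjusted p of 1.91e-07 and 3.69e-07 in limma). Krt14 had 3707, 3833 and 3845 normalized counts in T1 cells and 1.96, 7.17 and 0 in T2 cells, so the size of its fold change depends on the pseudocount. Itga6 and Itgb4, which encode integrin chains of hemidesmosomes and were named after their values were seen, were lower in T1 cells. Itga6 had means of 6310 and 18862 normalized counts (log2 fold change -1.58, adjusted p = 8.35e-08 in limma). Itgb4 had means of 2086 and 6023 (log2 fold change -1.53, adjusted p = 4.14e-07 in limma), close in size to the difference of Plec. The rest of those lower in T1 cells were not close to Plec in size. Col17a1 had a log2 fold change of -4.05 and Cd151 of -0.75 (adjusted p of 4.77e-06 and 7.51e-06 in limma).

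Ppl and Evpl are best known from the cornified envelope of the epidermis. Of 12 other genes of that envelope, Ivl, Tgm5, Lor and Sprr1b had no read in any library and only 3 reached the mean needed for the test. These were Kazn, Tgm1 and Aloxe3, each of them above T2 in every T1 library and past the test. Each reached that mean only through its T1 values, so the direction of these calls was largely set by the filter. A call higher in T1 cells was made for 25.1% of all genes tested. With 3 reads per library taken as the floor where T2 cells had no read, Kazn, which encodes a periplakin-binding protein, was at least 34.7-fold higher and Tgm1, a transglutaminase, at least 9.83-fold higher. Aloxe3, a lipoxygenase, had a log2 fold change of 3.28. The median of the 3 genes was 4.88, and 3.30 with Kazn and Tgm1 at their bound. Their levels were low, with a summed level of the list of 144 to 167 normalized counts in T1 libraries and 0.979 to 2.78 in T2 libraries. The lowest value of Ppl in any library, 990 normalized counts, was above every such sum.

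Loss of lamin B1 is a known mark of cells that have stopped dividing for good, so genes of the cell cycle were counted beside Lmnb1. In the study's MTT assay T1 cells proliferated significantly faster than T2 cells. Whether the level of Lmnb1 is tied to proliferation was not tested. Among 12 proliferation genes, T1 cells were higher in 2 and lower in 4, against 25.1% and 24.4% of all genes tested. The median log2 fold change of the 12 genes was 0.01. Plk1 and Mcm5 were higher in T1 cells (0.65 and 0.44, adjusted p of 3.64e-05 and 0.00038 in limma), and Top2a was lower (-0.75, adjusted p = 7.47e-06 in limma). Mki67 (-0.09) and Ccna2 (0.04) overlapped between the populations. The number lower in T1 cells was 1 to 2 without T1 replicate 1, T1 replicate 2, T2 replicate 1 or T2 replicate 3.

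Because Vim, Nes and Lmna are also expressed by stromal cells and the populations arose in a fibroblast culture, markers of other cell types were read in the same libraries. Of 6 epithelial markers, 4 (Epcam, Cdh1, Krt7 and Krt19) were higher in T1 cells, where 25.1% of all genes tested were. The summed level of the 6 markers was 91830 to 109880 normalized counts in T1 libraries and 37611 to 43995 in T2 libraries. Krt8 and Krt18, whose products form the simple epithelial keratin filament, did not pass the test, with means of 22067 and 19195 normalized counts for Krt8 (adjusted p = 0.0534) and 23275 and 21658 for Krt18 (adjusted p = 0.394, limma). T2 cells therefore kept simple keratin transcripts beside their higher level of Vim. Of 10 fibroblast markers, Col3a1, Lum, Pdgfrb, Thy1 and Fbln1 had no read in any library, and the summed level was 225 to 241 normalized counts in T1 libraries and 997 to 1297 in T2 libraries. The 2 markers with enough reads for the test went opposite ways. Col1a1 had enough only through its T1 values, so the direction of its call was largely set by the filter. Pdgfra, which made up nearly all of the T2 sum, was higher in T2 cells, with means of 199 and 1099 normalized counts. Col1a1 was higher in T1 cells, with 14.8, 27.9 and 24.4 normalized counts against at most 1 read in a T2 library (adjusted p = 4.94e-05, limma), and Col1a2, at 4.23 to 11.7 normalized counts in T1 libraries, had no read in T2 cells.

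The other lists were low in all libraries. Endothelial markers (8 genes, Kdr without a read) summed to 4.88 to 19.0 normalized counts in T1 libraries and 0.979 to 18.4 in T2 libraries. Leukocyte markers (8 genes, 3 without a read) summed to 61.4 to 95.6 and 80.7 to 126. Muscle markers (6 genes, 3 without a read) summed to at most 3.17 and 6.14. The lowest value of Vim was 31659 normalized counts in a T1 library and 137990 in a T2 library, above the sum of each of these lists. These counts are not scaled by gene length, and whether other cells added to the level of Vim was not tested. Epithelial markers, higher in T1 cells, and Pdgfra, higher in T2 cells (log2 fold change -2.45, adjusted p = 1.26e-07 in limma), moved with the population as Vim, Nes, Lmna and Plec did, and their part in these results was not tested.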

How the data were processed

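RNA sequencing libraries (Illumina TruSeq RNA V2, a kit that does not mark strand) of 3 T1 and 3 T2 samples were analysed. The authors removed adapters with Trimmomatic, aligned reads with TopHat2 (mm10), made gene counts with HTSeq and scaled each sample by 1 DESeq2 size factor. The deposited signal is this normalized count, and versions, annotation and strand setting are not given in the sources used here. No column of values was left unused (0 columns). Divided by the size of 1 read, 100% of the values were whole to within 0.01, so reads could be recovered. Depth was 18133227 to 20839686 reads on genes. The table held 27 names turned into dates, which are not named.

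Genes averaging 10 normalized counts or more were tested in R 4.3.3 with limma 3.58.1, on the log2 of the normalized count plus 1, with a variance trend and Benjamini-Hochberg adjustment, and called at an adjusted p under 0.01, with a log2 fold change beyond 2 as the further filter of the study's methods. On recovered reads, edgeR 4.0.16 (quasi-likelihood) called 2896 genes higher and 2820 lower in T1 cells and DESeq2 1.42.0 called 3104 and 2963, against 2888 and 2813 in limma. The tests were tested on simulated data. Other alternatives were the pseudocount, the filter on low counts, TMM and quantile normalization, no variance trend, the replicate number as a block, an adjusted p under 0.05 and each replicate left out.

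Positions and exon lengths came from GENCODE M21 and promoters from RefSeq (GRCm38.p6). The 10 genes and the lists of partners and markers were chosen with earlier results of these data known. Named were the 10 genes, all other plakins and lamin processing enzymes, and in the other partner lists the 3 largest differences called and the 2 most abundant genes not called, other genes being marked as chosen afterwards. Some genes that this rule names, and a list that rests on one of them, are not reported here. Marker lists are given by their summed level and defining genes. Intervals and floors (3 reads per library) cover the spread between samples and counting error, respectively. Figures were drawn with matplotlib 3.10.9.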

Additional observations from a re-analysis of the deposited data

How the results depend on the processing

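Nes and Lmnb1 higher and Vim, Lmna and Plec lower in T1 cells kept their direction and call under all 17 alternatives, with log2 fold changes of -2.29 to -2.07 for Vim and -2.19 to -2.01 for Lmna. Ppl lost its call in 4 of 17. Lmnb2 and Evpl, both under an adjusted p of 0.05 in limma with all samples, did not hold that in every alternative, with adjusted p from 0.0201 to 0.136 for Lmnb2 and from 0.00953 (without T1 replicate 3) to 0.129 for Evpl. The fold change of Dst, near 0, changed sign to -0.0422 under quantile normalization and ranged from -0.19 to 0.14 with each replicate left out in turn (-0.0212 without T2 replicate 2 and -0.00621 without T2 replicate 3). With the replicate block the calls were the same 2 higher and 4 lower genes, and Vim was at -2.15 (adjusted p = 1.01e-07, limma). Whether same-numbered samples were paired could not be decided with 3 replicates in each population. Deviations of same-numbered samples correlated at 0.0575, 0.172 and 0.104, and those of differently numbered samples at -0.152 to 0.0719. Every T1 replicate correlated best with its own number, but T2 replicate 1 correlated best with T1 replicate 3. Without the filter on low counts 2 of the remaining filament genes were lower in T1 cells, with a minimum mean of 50 normalized counts 1 cornified envelope gene was left to test, and without the variance trend 1 proliferation gene was lower. The cause was not tested. Synm and Evpl had at most 82 reads in a library. Levels per kilobase depend on the exon length used.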
